A study of Mus musculus with 12 samples.

Results

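The 10 transcription factors that establish and hold B cell identity, encoded by Pax5, Ebf1, Bach2, Spib, Spi1, Pou2af1, Pou2f2, Ikzf1, Ikzf3 and Irf8, were followed through RNA-seq counts of splenic B cells from 12 mice. They were found by gene symbol, and all 10 were present among the 50686 genes of the deposited tables. All 10 passed the filter on low counts that left 17754 genes for testing. The libraries came from B220-positive, reporter-positive cells sorted from dissociated spleen, with 33127283 to 47067627 gene counts each. The sorted antigen B220 is the B cell isoform of CD45 and is encoded by Ptprc. The pBIC mice (n = 6) had the genotype p53F/F, Blimp1F/F, IKK2castopF/stopF and Cg1Cre/+, that is, floxed p53 and Blimp1 and an always-active form of IKK2 that is expressed once its stop cassette is cut out, all switched by 1 recombinase. The BIC mice (n = 3) were Blimp1F/F, IKK2castopF/stopF and Cg1Cre/+, with p53 not listed as modified. The YC mice (n = 3) were YFPstopF/+ and Cg1Cre/+ and served as normal controls, so that all 3 groups carried 1 Cre allele. The cells were sorted on GFP in pBIC and BIC and on YFP in YC. Cg1Cre is driven from the immunoglobulin gamma 1 constant region locus, which is transcribed in germinal centre B cells and in other B cells stimulated to switch to IgG1. Reporter-positive YC cells are therefore cells with a history of that transcription, not resting B cells at large. Ages and sex are not given in the labels. The study uses pBIC and BIC mice as models of ABC-DLBCL, a lymphoma of activated B cells, and its design text counts the libraries as separate mice.

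B cell identity is held by a network in which the factors act on each other's genes. EBF1 and PAX5 commit lymphoid progenitors to the B lineage, switch on genes of the B cell receptor and its coreceptors, and shut down genes of other lineages. The ETS factors PU.1 (Spi1) and Spi-B (Spib) bind the same sites, PU.1 with IRF8 or IRF4 as a partner on composite sites. Oct2 (Pou2f2) and its B cell coactivator OCA-B (Pou2af1, also called OBF-1 or Bob1) act through octamer sequences, and in mouse Spib is a known direct target of OCA-B. The zinc finger proteins Ikaros (Ikzf1) and Aiolos (Ikzf3) recruit chromatin remodellers, and BACH2 represses Prdm1, the gene of the plasma cell factor Blimp1.

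Spib and Pou2af1 are shown first, because both hold a part of the octamer in the bases before their start site and because they behaved differently in the samples. The RefSeq promoter table for GRCm38.p6 held windows for 8 of the 10 genes, 11 windows in all, and the 250 bases before each start site were searched. The octamer ATGCAAAT, its 7-letter core TGCAAAT, the PU box GAGGAA, the EBF site CCCNNGGG, paired IRF half-sites and the kappaB site were looked for on both strands. The core overlaps every octamer by construction. Capitals mark each match, and the sequences run 5′ to 3′ on the strand of the gene, on chromosome 7 (minus strand) for Spib and chromosome 9 (plus strand) for Pou2af1.
Spib, chr7:44532072-44532321: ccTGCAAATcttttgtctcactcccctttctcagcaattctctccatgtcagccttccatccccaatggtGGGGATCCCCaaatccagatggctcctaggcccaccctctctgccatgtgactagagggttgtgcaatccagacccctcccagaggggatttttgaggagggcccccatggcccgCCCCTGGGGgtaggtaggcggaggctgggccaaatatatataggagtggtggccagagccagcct
Pou2af1, chr9:51213440-51213689: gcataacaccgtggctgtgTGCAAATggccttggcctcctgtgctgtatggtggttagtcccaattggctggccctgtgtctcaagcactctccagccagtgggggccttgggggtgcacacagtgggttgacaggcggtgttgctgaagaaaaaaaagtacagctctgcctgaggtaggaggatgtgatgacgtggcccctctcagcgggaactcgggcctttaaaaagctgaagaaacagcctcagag
In the Spib window the octamer core, at bases 3 to 9, was followed by a kappaB site at bases 71 to 80 and by overlapping EBF sites between bases 186 and 194. In the Pou2af1 window the core at bases 20 to 26 was the only match. The octamer core was present in 3.56% of 32851 promoter windows of this length, the full octamer in 1.6%, the kappaB site in 3.9%, the EBF site in 11.8%, the paired IRF half-sites in 2.98% and the PU box in 23.3%. Among the other windows, an Ebf1 window held the paired IRF half-sites, a second Ebf1 window and the Pou2f2 window held a PU box, and an Ikzf1 window held an EBF site. The start site of the Pou2f2 window lies 47266 bases inside the gene as counted, and that of the Bach2 window 178631 bases. The bases before the outermost starts of these genes were therefore not searched. These matches describe letters and do not show that a factor binds there.

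The engineered genes and the cell type markers were checked before the factors. Trp53 averaged 23.7 ± 5.27 CPM (SD, n = 6) in pBIC, 143 ± 68.4 CPM in BIC and 141 ± 5.30 CPM in YC (n = 3 each). CPM are counts relative to the library total after TMM scaling. Ikbkb, the gene of IKK2, averaged 488 ± 24.1, 448 ± 81.0 and 237 ± 17.5 CPM, and Prdm1 11.6 ± 7.68, 26 ± 18.5 and 18.8 ± 1.04 CPM, in the same order of groups. All 8 B cell defining markers (among them Cd79a, Cd79b, Ms4a1, Ptprc, Ighm and Igkc) had counts in every library. Their summed level was 5060 to 14700 CPM in pBIC, 14500 to 16200 CPM in BIC and 19600 to 21700 CPM in YC. Ighm, the IgM heavy chain gene, made up much of this sum and its spread, with 394 to 9020 CPM in pBIC, 2180 to 6320 CPM in BIC and 8520 to 9140 CPM in YC. The 14 neutrophil markers summed to 6.43 to 88.5 CPM in pBIC, 69.4 to 1650 CPM in BIC and 3.23 to 304 CPM in YC, and the 15 macrophage and monocyte markers to 31.7 to 383, 203 to 343 and 55.9 to 108 CPM. Xist stood at 2.58 to 2630 CPM in pBIC, 1680 to 1830 CPM in BIC and 0.0845 to 5.13 CPM in YC. The sex of the mice and the genotype therefore cannot be told apart between BIC and YC. A fit with a term for Xist expression cannot separate them there either. In bulk samples, fewer cells of a type and less RNA per cell cannot be told apart.

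**Figure D1:**
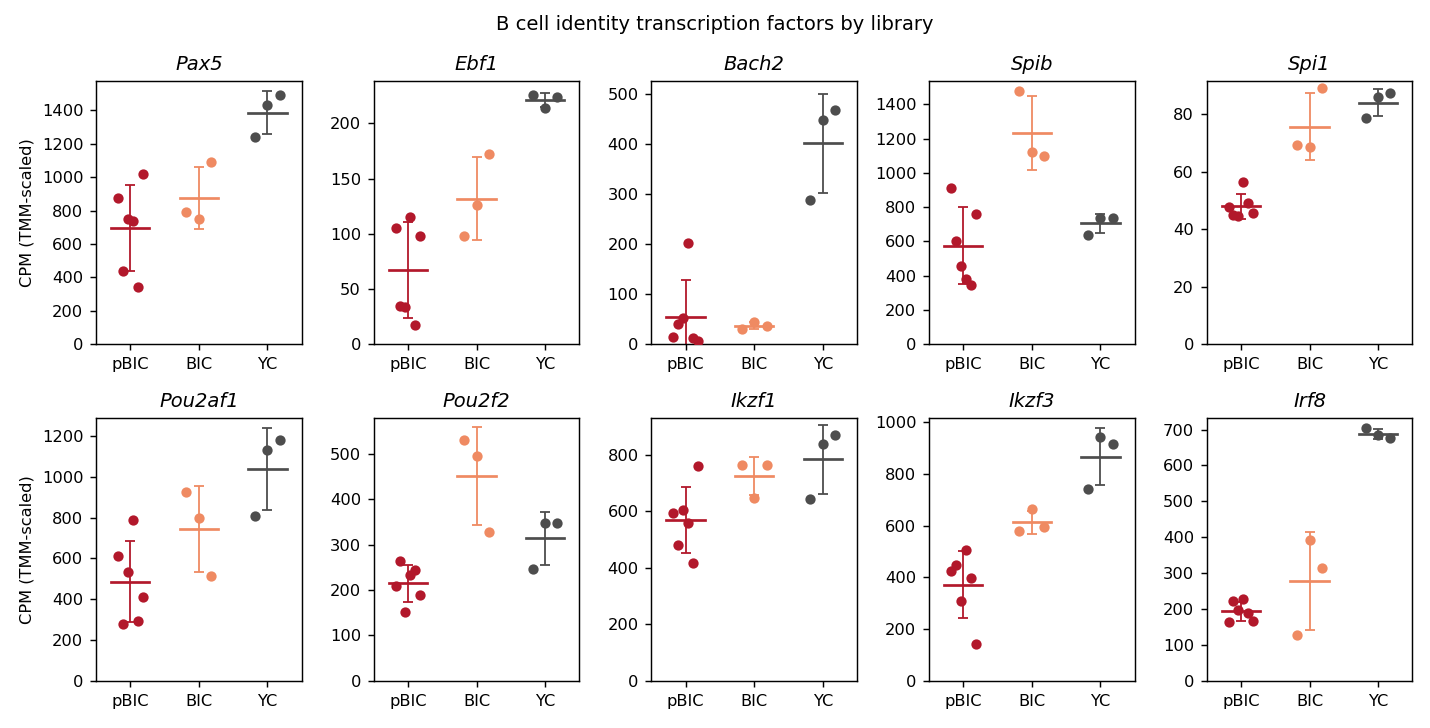
Level of each of the 10 factors in CPM after TMM scaling in every library of pBIC (n = 6), BIC (n = 3) and YC (n = 3). Points are libraries, horizontal lines group means and error bars SD (the lower bar of Bach2 in pBIC is clipped at 0); the axes differ between panels and start at 0. Irf8 stands at 165 to 227 CPM in pBIC and 676 to 704 CPM in YC, while Spib is highest in BIC.

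To compare the factors with each other, counts were divided by the exon length of each gene as well (RPKM). In YC the order of levels was Pou2af1 (408 ± 79.6 RPKM, SD, n = 3), Spib (246 ± 20.0), Pax5 (157 ± 14.5), Ikzf1 (136 ± 21.3), Ikzf3 (99.0 ± 12.4), Irf8 (97.6 ± 2.04), Bach2 (40.3 ± 9.85), Pou2f2 (38.0 ± 7.11), Spi1 (31.2 ± 1.78) and Ebf1 (22.7 ± 0.628). The YC libraries of Pax5 and Ikzf1 overlapped in level, as did those of Ikzf3 and Irf8 and those of Bach2, Pou2f2 and Spi1. In pBIC Spib (201 ± 78.6 RPKM, n = 6) and Pou2af1 (191 ± 77.5) headed the order, with overlapping libraries, and Ebf1 (6.90 ± 4.42) and Bach2 (5.49 ± 7.51) closed it. In BIC Spib (429 ± 75.0 RPKM, n = 3) headed the order and Bach2 (3.75 ± 0.703) closed it, below Ebf1 (13.5 ± 3.84). Irf8 was in place 6 in pBIC and in YC, although its level in pBIC was 27.5 ± 3.73 RPKM.

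Setting pBIC beside YC addresses how B cells with the 3 alterations differ from normal reporter-positive B cells. In pBIC 7 of the 10 factors fell, namely Irf8, Spi1, Ikzf3, Ebf1, Pou2af1, Bach2 and Pax5, with log2 fold changes between -2.88 and -0.81. The count was 4 without YC 1, 2 without YC 2 and 3 without YC 3, where 2223, 1904 and 2328 of all genes passed. By limma-voom 9 factors passed, where 7295 of the 17754 genes tested did. None rose by edgeR, whether at an adjusted p under 0.05 or at an unadjusted p under 0.05, and none rose by DESeq2 or by limma-voom. Spib, Pou2f2 and Ikzf1 did not pass the test. Of all 17754 genes tested, 22% passed in this comparison, 10.2% lower and 11.8% higher in pBIC. The median log2 fold change was -1.05 over the 10 factors and 0.10 over all genes tested. At an unadjusted p under 0.05, 9 factors were lower, where 6464 of all genes tested passed in either direction.

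The comparison of BIC with YC asks the same of cells with p53 not modified. Only Irf8 passed the test by edgeR, and it fell. Over all genes tested 8.88% passed, 4.97% lower and 3.9% higher in BIC, and 1 of 10 factors is close to that share in this fit. The count of factors depended on the fit. It was 0 without YC 1, YC 2, YC 3 or BIC 3, where 563 to 1061 genes passed. It was 2 without pBIC 4 or pBIC 6, where 1697 and 1843 genes passed. By limma-voom 5 factors passed, where 6157 of the 17754 genes tested did. With only the 2 groups 6 factors passed, where 4602 genes did. The median log2 fold change was -0.49 over the factors and 0.01 over all genes. None of the factors rose by edgeR or by DESeq2, while at an unadjusted p under 0.05, and also by limma-voom at its adjusted p, 1 rose, Spib. By limma-voom 4 factors fell.

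The comparison of pBIC with BIC shows the groups that differ in the p53 allele. Spi1, Pou2f2 and Spib fell in pBIC, which is 3 of 10 factors. Of all genes 19.7% passed, 8.78% lower and 10.9% higher in pBIC. The median log2 fold change was -0.64 over the factors and 0.09 over all genes. None rose by edgeR at an adjusted or unadjusted p under 0.05, by DESeq2 or by limma-voom. By limma-voom 6 fell, where 5371 of the 17754 genes tested passed in either direction. The comparisons of pBIC and of BIC with YC share the same 3 YC libraries.

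**Figure D2:**
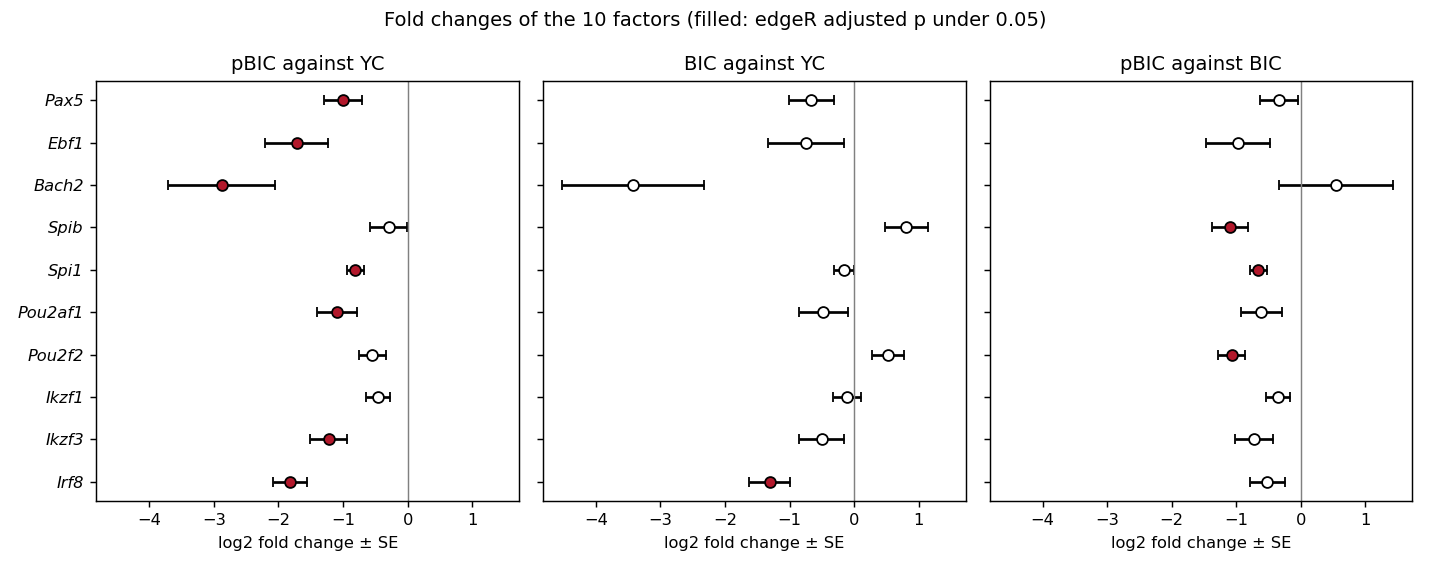
Log2 fold change with its SE for each factor in the 3 comparisons (pBIC against YC, BIC against YC and pBIC against BIC), from the fit over all 12 libraries. Filled points passed an edgeR adjusted p under 0.05. In pBIC against YC every point lies below 0 and 7 are filled, in BIC against YC only Irf8 is filled, and in pBIC against BIC Spib, Spi1 and Pou2f2 are filled.

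The lineage factors EBF1 and PAX5 come first. Pax5 (ENSMUSG00000014030.15, chromosome 4, 44524757 to 44710487, minus strand, GRCm38), the factor that fixes B lineage commitment, ranged from 344 to 1020 CPM in pBIC with a median of 743 CPM, and had 790, 750 and 1090 CPM in BIC and 1240, 1430 and 1490 CPM in YC. All pBIC and all BIC libraries were below all YC libraries, and pBIC and BIC overlapped. Pax5 was called lower in pBIC than in YC, with a log2 fold change of -0.999 ± 0.29 (SE, edgeR adjusted p = 0.0293). Its difference was -0.66 ± 0.35 in BIC against YC (edgeR adjusted p = 0.257, 0.0132 by limma-voom) and -0.34 ± 0.30 in pBIC against BIC (edgeR adjusted p = 0.456). Without YC 1, YC 2 or YC 3 in turn the call in pBIC against YC ended, with an edgeR adjusted p up to 0.0994, and with a term for Xist expression the log2 fold change was -0.67 (edgeR adjusted p = 0.125). Of the Pax5 exon bases 8.60% are shared with genes annotated on the other strand, and reads there cannot be assigned by strand.

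Ebf1 (ENSMUSG00000057098.14, chromosome 11, 44617317 to 45008091, plus strand), which acts with PAX5 and opens chromatin at B cell genes, ranged from 17.2 to 115 CPM in pBIC with a median of 66.4 CPM. It had 97.6, 126 and 172 CPM in BIC and 226, 214 and 224 CPM in YC. The YC libraries had an SD of 6.12 CPM and lay above all others. Within pBIC, libraries 5, 3 and 2 were low (17.2, 33.9 and 34.7 CPM) and libraries 1, 4 and 6 near the BIC range. Ebf1 fell in pBIC against YC (-1.72 ± 0.49, edgeR adjusted p = 0.0259). It stood at -0.75 ± 0.59 in BIC against YC (edgeR adjusted p = 0.461) and in pBIC against BIC at -0.97 ± 0.49 (edgeR adjusted p = 0.187). Neither passed in the main fit, but Ebf1 passed in each of these 2 comparisons under an alternative fit. Leaving out any 1 of the YC libraries ended the call in pBIC against YC (edgeR adjusted p up to 0.0758), with the Xist term (0.105) and without the filter on low counts (0.0639).

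Bach2 (ENSMUSG00000040270.16, chromosome 4, 32238804 to 32586108, plus strand) encodes the repressor that holds back plasma cell differentiation. It ranged from 5.77 CPM in pBIC 6 to 202 CPM in pBIC 4, with a median of 26.6 CPM, and had 31.2, 44.9 and 35.8 CPM in BIC and 288, 448 and 467 CPM in YC. Every pBIC and every BIC library was below every YC library, and the highest pBIC library was 35.1 times the lowest. Bach2 fell in pBIC against YC (-2.88 ± 0.83, edgeR adjusted p = 0.0280). In BIC against YC its log2 fold change of -3.43 ± 1.09 was of the same order but did not pass (edgeR adjusted p = 0.0735). It passed with only the 2 groups in the fit (0.000246), without pBIC 4 (0.0161), without pBIC 6 (0.0398) and by limma-voom (0.00031). It also passed with a replicate block (0.00348) and with the Xist term (0.0295). Libraries pBIC 4 to 6 have replicate numbers that no other library has, so the block leaves them no part in the group differences. The Xist term cannot separate sex from genotype in BIC against YC. The call in pBIC against YC ended without YC 1, YC 2, YC 3 or pBIC 2 (edgeR adjusted p up to 0.0841), with only those 2 groups (0.0515) and without the filter on low counts (0.0979). Between pBIC and BIC the log2 fold change was 0.55 ± 0.88 (edgeR adjusted p = 0.700), and without pBIC 4 it was -0.58. The gene's antisense partner Bach2os overlaps 5.40% of its exon bases.

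The ETS factors differed from each other. Spi1 (ENSMUSG00000002111.8, chromosome 2, 91082390 to 91115756, plus strand), the gene of PU.1, ranged from 44.6 to 56.3 CPM in pBIC with a median of 46.6 CPM, and had 69.4, 68.5 and 89.3 CPM in BIC and 78.6, 86.2 and 87.5 CPM in YC. All 6 pBIC libraries lay below all BIC and YC libraries, while BIC and YC overlapped. Spi1 fell in pBIC, by both comparisons: -0.81 ± 0.13 relative to YC (edgeR adjusted p = 0.00166) and -0.66 ± 0.13 relative to BIC (edgeR adjusted p = 0.00621), and changed by -0.15 ± 0.16 in BIC against YC (edgeR adjusted p = 0.582). Both calls held without each of the 12 libraries in turn and with a term for myeloid markers (edgeR adjusted p = 0.00197 and 0.0423). PU.1 is also a factor of neutrophils and macrophages, whose marker sums are given above.

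Spib (ENSMUSG00000008193.13, chromosome 7, 44525993 to 44532071, minus strand), the ETS factor of mature B cells whose promoter is printed above, had its highest values in BIC. It ranged from 346 to 913 CPM in pBIC with a median of 527 CPM, and had 1480, 1120 and 1100 CPM in BIC and 639, 737 and 739 CPM in YC. The BIC libraries were above all others, and the pBIC libraries overlapped with YC. Spib fell in pBIC against BIC (-1.10 ± 0.28, edgeR adjusted p = 0.0185). Its log2 fold change was 0.80 ± 0.34 in BIC against YC (edgeR adjusted p = 0.154, and 0.00999 with only these 2 groups) and -0.29 ± 0.29 in pBIC against YC (edgeR adjusted p = 0.491). The call in pBIC against BIC ended without BIC 1 (0.0963) and with the myeloid term (-1.23, edgeR adjusted p = 0.162). Spib is also expressed in plasmacytoid dendritic cells, whose 10 listed markers summed to 514 to 1210 CPM in pBIC, 1480 to 1950 CPM in BIC and 518 to 561 CPM in YC. Of the 8 tested, 7 had a positive log2 fold change in BIC against YC. Bst2 and Ly6d, which B cells also express, rose there. Tcf4 stood at 714, 601 and 339 CPM in BIC and at 250, 275 and 241 CPM in YC. Pacsin1 went the other way, with 21.4, 28.3 and 12.2 CPM in BIC and 50.3, 57.8 and 55.2 CPM in YC. The defining marker Siglech stood at 0.0515 to 1.46 CPM in pBIC, 0.763 to 1.92 CPM in BIC and 0.338 to 0.702 CPM in YC. At this low level every BIC library was above every YC library. The part of these markers in the Spib difference was not tested.

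**Figure D3:**
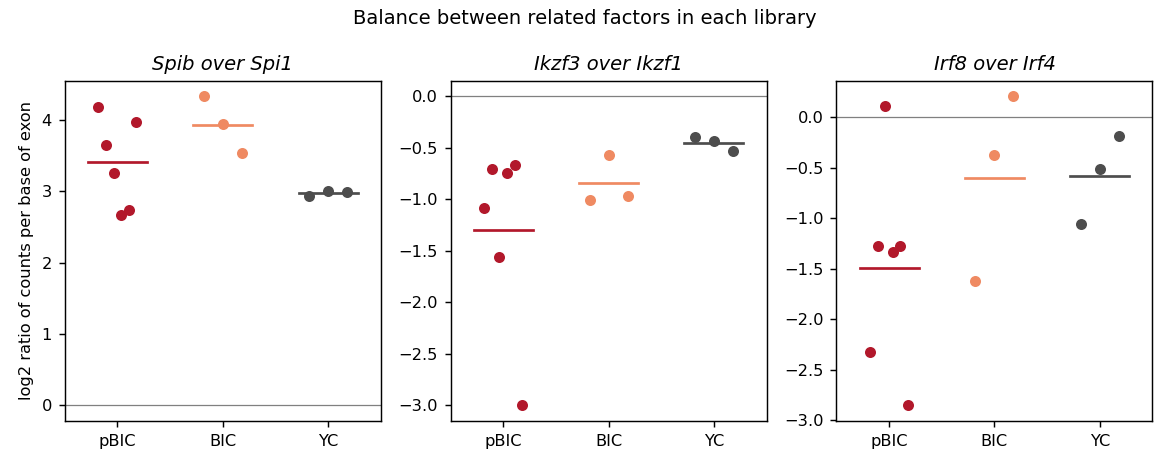
Log2 ratio of counts per base of exon between related factors in each library of pBIC, BIC and YC; lines are group means. Spib exceeds Spi1 in every library, and Ikzf3 is below Ikzf1 in every library, most in pBIC 6 (-3.00).

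Since PU.1 and Spi-B bind the same sites, the balance between them was measured within each library as a log2 ratio per length. Spib over Spi1 was 3.41 ± 0.63 in pBIC (SD, n = 6), 3.93 ± 0.40 in BIC and 2.98 ± 0.04 in YC (n = 3 each). The 3 BIC libraries were above the 3 YC libraries. The pBIC libraries spanned 2.67 to 4.17, which covers the YC values. Ikzf3 over Ikzf1 was -1.29 ± 0.90 in pBIC, -0.84 ± 0.24 in BIC and -0.45 ± 0.07 in YC, and all pBIC and BIC libraries were below all YC libraries. Irf8 over Irf4, the relatives that share PU.1 as a partner, was -1.49 ± 1.02 in pBIC, -0.60 ± 0.94 in BIC and -0.59 ± 0.44 in YC, with overlap between all groups. These ratios were not tested.

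Oct2 and its coactivator follow. Pou2af1 (ENSMUSG00000032053.8, chromosome 9, 51213708 to 51240080, plus strand), the gene of OCA-B, ranged from 280 to 790 CPM in pBIC with a median of 473 CPM, and had 924, 797 and 514 CPM in BIC and 806, 1130 and 1180 CPM in YC. All pBIC libraries were below all YC libraries, by a narrow margin in pBIC 4 (790 CPM against 806 CPM in YC 1), and BIC overlapped with both. Pou2af1 fell in pBIC against YC (-1.09 ± 0.32, edgeR adjusted p = 0.0279). Leaving out YC 2 or YC 3 ended the call, at an edgeR adjusted p of up to 0.105. The call also ended with the Xist term (edgeR adjusted p = 0.0814) and with a replicate block (-1.18, edgeR adjusted p = 0.0615). In the fit with the block, pBIC is represented by libraries 1 to 3 alone. Its value was -0.48 ± 0.38 in BIC against YC (edgeR adjusted p = 0.461) and in pBIC against BIC -0.61 ± 0.32 (edgeR adjusted p = 0.195).

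Pou2f2 (ENSMUSG00000008496.19, chromosome 7, 25087344 to 25179726, minus strand), the gene of Oct2, ranged from 151 to 263 CPM in pBIC with a median of 221 CPM, and had 529, 495 and 327 CPM in BIC and 246, 348 and 347 CPM in YC. The pBIC libraries were all below the BIC libraries and overlapped with YC. Pou2f2 fell in pBIC against BIC (-1.07 ± 0.21, edgeR adjusted p = 0.00518), a call that held without each of the 12 libraries in turn and ended with the myeloid term (-0.77, edgeR adjusted p = 0.204). Against YC it stood at 0.52 ± 0.25 in BIC (edgeR adjusted p = 0.208), and at -0.55 ± 0.21 in pBIC (edgeR adjusted p = 0.0799, 0.0488 by DESeq2).

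Of the Ikaros family, Ikzf1 (ENSMUSG00000018654.17, chromosome 11, 11685003 to 11772926, plus strand) ranged from 418 to 761 CPM in pBIC with a median of 575 CPM, and had 764, 647 and 764 CPM in BIC and 643, 838 and 871 CPM in YC. The groups overlapped in all 3 comparisons and none passed, with log2 fold changes of -0.46 ± 0.19 in pBIC against YC (edgeR adjusted p = 0.0946), -0.11 ± 0.22 in BIC against YC (0.789) and -0.35 ± 0.19 in pBIC against BIC (0.207). Without pBIC 6 it passed in pBIC against YC (-0.55, edgeR adjusted p = 0.0318).

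Ikzf3 (ENSMUSG00000018168.8, chromosome 11, 98464902 to 98546031, minus strand), the gene of Aiolos, ranged from 144 CPM in pBIC 6 to 504 CPM in pBIC 4, with a median of 411 CPM, and had 578, 664 and 594 CPM in BIC and 742, 942 and 915 CPM in YC. The groups formed 3 steps without overlap, with pBIC lowest and YC highest. It fell in pBIC against YC (-1.22 ± 0.29, edgeR adjusted p = 0.0111; 0.0553 without YC 2). In BIC against YC its value was -0.50 ± 0.35 (edgeR adjusted p = 0.395, 0.0397 by limma-voom) and in pBIC against BIC -0.72 ± 0.29 (edgeR adjusted p = 0.103, 0.0287 without pBIC 6).

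Irf8 (ENSMUSG00000041515.9, chromosome 8, 120736358 to 120756694, plus strand) encodes an interferon regulatory factor that acts with PU.1 in B cells and in dendritic cells, and that is expressed in germinal centre B cells. It ranged from 165 to 227 CPM in pBIC with a median of 193 CPM, and had 128, 393 and 314 CPM in BIC and 704, 685 and 676 CPM in YC. The YC libraries agreed within an SD of 14.4 CPM and were above all pBIC and BIC libraries, and BIC 1 was lower than all pBIC libraries. Irf8 fell in pBIC against YC (-1.83 ± 0.26, edgeR adjusted p = 0.000873) and in BIC against YC (-1.31 ± 0.32, edgeR adjusted p = 0.0265). The difference between pBIC and BIC was -0.52 ± 0.27 (edgeR adjusted p = 0.189; 0.0168 without BIC 1). The call in pBIC against YC held without each of the 12 libraries in turn. That in BIC against YC ended without YC 1, YC 2, YC 3 or BIC 3 (edgeR adjusted p up to 0.0802). It also ended with the Xist term (log2 fold change -1.58, edgeR adjusted p = 0.0544) and with the myeloid term (-1.27, edgeR adjusted p = 0.182). The Xist term cannot separate sex from genotype in BIC against YC. The 9 conventional dendritic cell markers summed to 21.5 to 56.9 CPM in pBIC, 186 to 268 CPM in BIC and 101 to 132 CPM in YC. Sirpa carried most of the sum in BIC (22.6 ± 9.95 CPM in pBIC, 201 ± 41.6 CPM in BIC and 36.1 ± 1.12 CPM in YC). Other markers of the list went both ways. Flt3 averaged 3.76 ± 2.5 CPM in pBIC, 1.25 ± 0.432 CPM in BIC and 47.2 ± 6.00 CPM in YC. Itgax averaged 4.04 ± 2.96, 6.08 ± 1.23 and 25.0 ± 5.68 CPM in that order. Batf3 was higher in the tumour groups, with 6.13 ± 5.48, 5.8 ± 0.515 and 0.403 ± 0.0501 CPM. It rose in pBIC and in BIC against YC (edgeR adjusted p = 0.00869 and 0.0254). The Batf3 call in BIC ended without YC 1, YC 2, YC 3, BIC 1 or BIC 2. Xcr1 stood at no more than 1.09 CPM in any library. The part of these cells in the Irf8 difference was not tested.

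**Figure D4:**
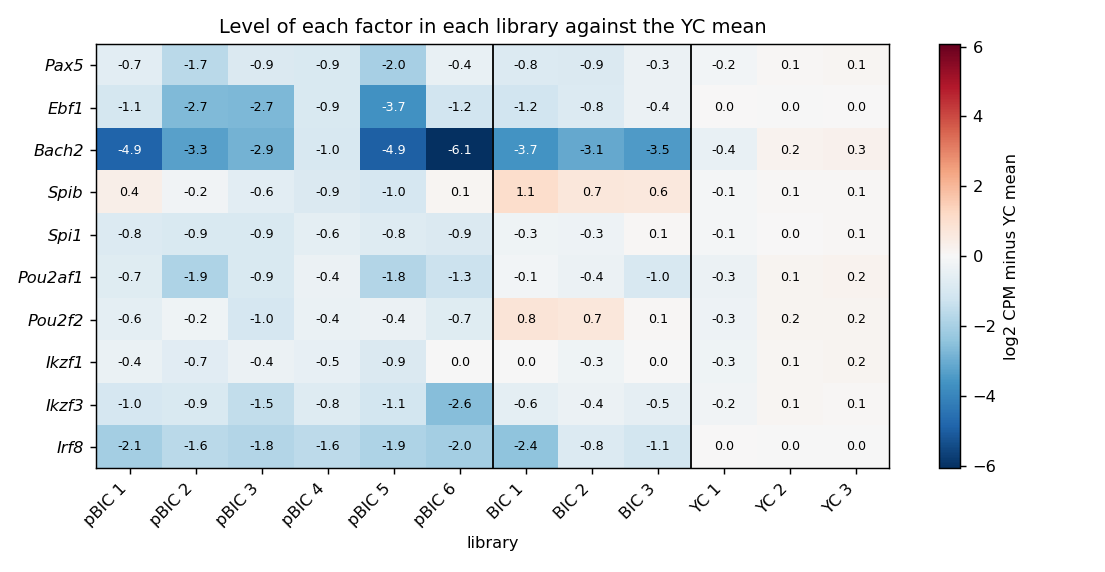
Log2 CPM of each factor in each library minus the mean of the 3 YC libraries, with pBIC 1 to 6, BIC 1 to 3 and YC 1 to 3 in columns. Blue is below and red above the YC mean. Spi1 and Irf8 are low in all pBIC libraries by similar amounts, while Bach2, Ebf1 and Ikzf3 differ widely between pBIC libraries.

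The names of the deposited tables carry tags, h or l, that divide the pBIC libraries, with h on pBIC 1 to 3 and l on pBIC 4 to 6. The labels do not explain these tags, and the 6 libraries were kept as 1 group. The median SD of log2 CPM over the 10 factors was 0.58 in pBIC, 0.28 in BIC and 0.16 in YC, beside 0.42, 0.22 and 0.17 over the 10098 tested genes whose mean reached 5 CPM. The factors therefore spread about as much as other genes in YC. In pBIC the SD ran from 0.13 for Spi1 to 1.83 for Bach2. For Irf8, Spi1 and Pou2f2 the SD was smaller in pBIC than in BIC (0.20 against 0.86, 0.13 against 0.22 and 0.29 against 0.38). Library pBIC 5 was the lowest pBIC library for 4 of the factors and had the lowest median distance from the YC mean (-1.46 on the log2 scale), and pBIC 4 was the highest for 6 of the factors (median -0.83). In pBIC 2, 3, 4 and 5 all 10 factors were below the YC mean, and in pBIC 1 and pBIC 6 it was 9 of 10. This repeats by library the lower levels tested above, and no share of all genes is set beside it.

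The genes known to be switched on by PAX5 or EBF1 were lower in pBIC for a larger share than all genes. Of 26 such genes tested, 10 fell and 2 rose in pBIC against YC, with a median log2 fold change of -1.04. Over all genes 10.2% fell and 11.8% rose in pBIC against YC, and 4.97% fell and 3.9% rose in BIC against YC. Fcer2a, the IgE receptor CD23 of mature B cells, averaged 13.1 ± 14.8 CPM in pBIC and 620 ± 59.2 CPM in YC, and the kinase gene Prkd2 averaged 103 ± 27.4 and 279 ± 19.9 CPM (edgeR adjusted p = 0.00172 and 0.000652). Bst1 and Cplx2 rose (log2 fold change 2.58 ± 0.66 and 3.59 ± 1.11), and both calls ended when any 1 YC library was left out, that of Cplx2 also without BIC 2 or pBIC 3 (edgeR adjusted p up to 0.077 and 0.13). In BIC against YC 3 of the 26 fell, among them Fcer2a (11.2 ± 12.1 against 620 ± 59.2 CPM) and Prkd2 (121 ± 17.3 against 279 ± 19.9 CPM), and Ly6d rose (1050 ± 261 against 213 ± 20.5 CPM). The call of Fcer2a ended without BIC 1 or BIC 2, that of Prkd2 without BIC 2, and that of Ly6d without YC 1, YC 2, YC 3, BIC 1 or BIC 3. In pBIC against BIC 9 fell and 1 rose, with a median of -0.77, where 8.78% of all genes fell and 10.9% rose. Cd180, a Toll-like receptor relative of B cells, averaged 117 ± 48.8 CPM in pBIC and 407 ± 67.5 CPM in BIC, and Cd74, the MHC class II invariant chain, 4930 ± 1100 and 10500 ± 2160 CPM (edgeR adjusted p = 0.00325 and 0.00379).

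The B cell defining markers were tested in the same fit. In pBIC against YC 3 of the 8 fell, and in pBIC against BIC 4 did, where 10.2% and 8.78% of all genes fell. Of those that fell in pBIC against BIC, Cd79b, Ms4a1 and Cd22 are also counted above among the genes switched on by PAX5 or EBF1. Ptprc, which encodes B220, averaged 552 ± 128 CPM in pBIC, 1260 ± 126 CPM in BIC and 1860 ± 189 CPM in YC. It fell in pBIC against BIC (-1.19 ± 0.18, edgeR adjusted p = 0.00201) and against YC (-1.75 ± 0.18, edgeR adjusted p = 0.00019). Cd22, an inhibitory coreceptor, averaged 564 ± 164, 1010 ± 215 and 1460 ± 55.6 CPM in the same order, and its call in pBIC against BIC ended without BIC 1 or BIC 2 (edgeR adjusted p up to 0.127). None of the 8 passed in BIC against YC by edgeR or DESeq2, with 1 lower at an unadjusted p under 0.05 and 2 lower by limma-voom. The part that these markers, or cells other than B cells, have in the lower factor levels was not tested.

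Among 19 tested genes that PAX5 is known to repress, 2 rose and 1 fell in pBIC against YC, with a median log2 fold change of 0.33. Neither count was above the share of all genes tested, of which 11.8% rose and 10.2% fell. In BIC against YC 3 rose and 1 fell, with a median of 0.95 and positive values for 15 of the 19. Over all genes 3.9% rose and 4.97% fell there. The risers in BIC numbered 6 at an unadjusted p under 0.05, 6 by DESeq2 and 8 by limma-voom. In the same order 4565, 3032 and 6157 of all genes passed in either direction. Prtn3 of this list stood at 12.9, 23.0 and 0.112 CPM in BIC 1, 2 and 3, where the neutrophil marker S100a8 stood at 163, 278 and 11.3 CPM. In pBIC against BIC the log2 fold change of Prtn3 was -5.655 in the main fit and 1.23 with the myeloid term. Beyond such fits of single genes, the part of myeloid cells in the values of this list was not tested. Lgals1, a galectin, rose in both (2.11 ± 0.37 and 2.28 ± 0.41, edgeR adjusted p = 0.00257 and 0.00675), as did the surface protein gene Ly6a (1.58 ± 0.49 and 2.83 ± 0.56). The cytokine receptor gene Flt3 fell in both (-3.65 ± 0.45 and -5.24 ± 0.63). The Ly6a call in BIC ended without YC 2 or YC 3, and that in pBIC without 8 of the 12 libraries in turn, the 3 YC libraries, BIC 2, BIC 3, pBIC 1, pBIC 5 and pBIC 6.

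Among targets of the ETS factors and of Oct2 with OCA-B, more fell than rose in pBIC. Of 16 targets of PU.1 and Spi-B, 7 fell and 1 rose in pBIC against YC, and 6 fell in pBIC against BIC, where none rose by edgeR at an adjusted or unadjusted p under 0.05, by DESeq2 or by limma-voom. Over all genes 10.2% fell and 11.8% rose in pBIC against YC. The shares were 4.97% and 3.9% in BIC against YC and 8.78% and 10.9% in pBIC against BIC. The transcription factor gene Mef2c averaged 216 ± 71.5 CPM in pBIC, 165 ± 28.2 CPM in BIC and 669 ± 10.9 CPM in YC. The adaptor gene Grap2 averaged 21.8 ± 15.3 CPM in pBIC and 103 ± 5.37 CPM in YC. The B cell receptor kinase gene Syk averaged 667 ± 174 CPM in pBIC and 2130 ± 334 CPM in BIC (-1.67 ± 0.20, edgeR adjusted p = 0.000798). The cytokine receptor gene Csf2rb went the other way against YC, with 83.0 ± 11.7 CPM in pBIC, 239 ± 57.9 CPM in BIC and 29.8 ± 7.27 CPM in YC. Of 10 targets of Oct2 and OCA-B, 4 fell in pBIC against YC and 3 in BIC against YC, with Ccnd3, a G1 cyclin, at 61.4 ± 9.68 CPM in pBIC, 69.8 ± 7.59 CPM in BIC and 158 ± 17.0 CPM in YC. None of the 10 rose by edgeR in either comparison, while at an unadjusted p under 0.05 2 rose in each, by DESeq2 2 in pBIC and 1 in BIC, and by limma-voom 2 in BIC.

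**Figure D5:**
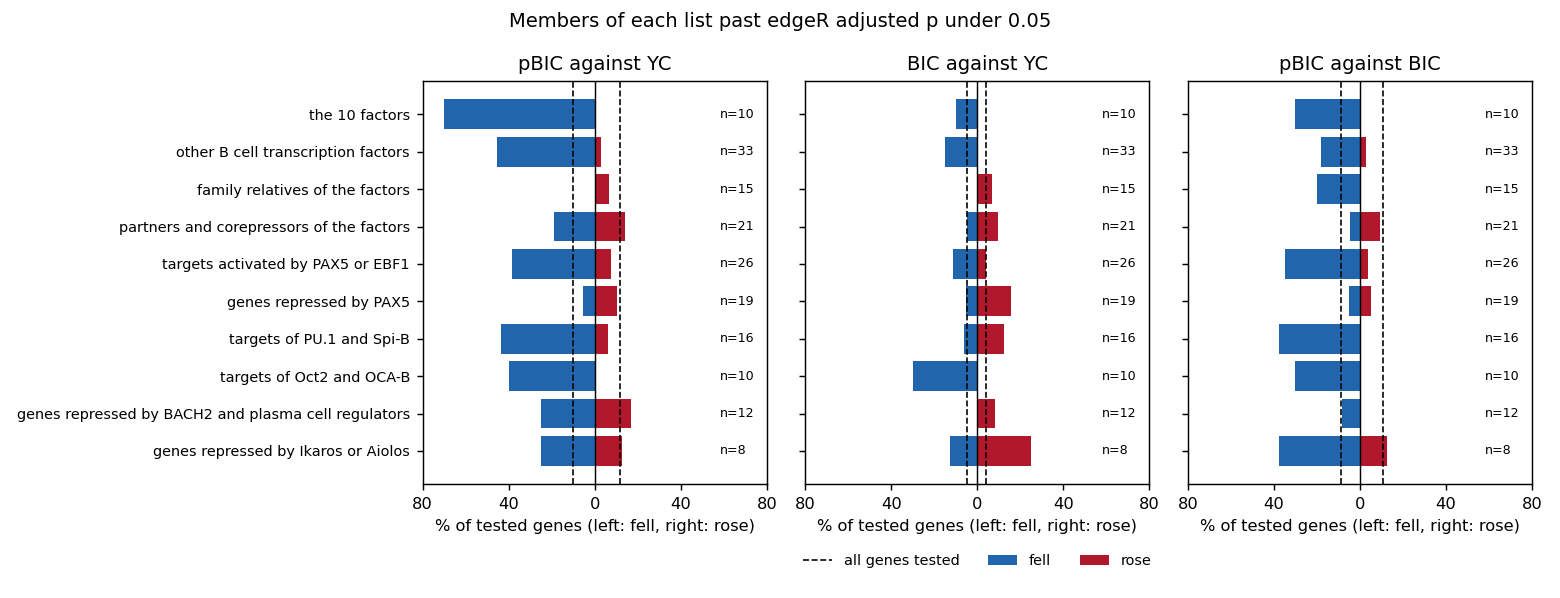
Share of the tested genes of each list that fell (left, blue) or rose (right, red) at an edgeR adjusted p under 0.05 in the 3 comparisons; dashed lines give the share of all 17754 genes tested in each direction and n is the number tested. In pBIC against YC the bars to the left pass the dashed line of 10.2% for the 10 factors (7 of 10) and for every other list except the family relatives (0 of 15) and the genes repressed by PAX5 (1 of 19). Some genes, among them Cd22, Mef2c and Bcl6, stand in more than 1 list, so the bars are not independent.

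Of 33 other transcription factors of B cells tested, 15 fell and 1 rose in pBIC against YC, where 10.2% of all genes fell and 11.8% rose. Their median log2 fold change was -0.97, and 8 of the 33 had a positive value. Those that fell were Id3, Foxo1, Bcl11a, Bcl6, Mef2c, Klf3, Mybl1, Runx1, Ets1, Elf1, Fli1, Zbtb7a, Zfp318, Satb1 and Tox. Satb1, a chromatin organiser, averaged 2.38 ± 1.20 CPM in pBIC and 85.2 ± 25.8 CPM in YC, and Bcl6, the germinal centre repressor, 3.99 ± 3.58 and 235 ± 71.8 CPM. Myb, a progenitor factor, rose (73.4 ± 40.2 against 19.2 ± 0.524 CPM, edgeR adjusted p = 0.00864). In BIC against YC 5 fell, namely Bcl6, Mef2c, Mybl1, Fli1 and Satb1, and none rose by edgeR, with 3 higher at an unadjusted p under 0.05, 2 by DESeq2 and 5 by limma-voom. The call of Bcl6 in BIC ended without BIC 1 or BIC 2 (edgeR adjusted p up to 0.0592). In pBIC against BIC 6 fell and 1 rose, led by the Krüppel-like factor Klf3 (24.5 ± 7.74 against 93.9 ± 12.2 CPM) and Zbtb7a (80.9 ± 14.6 against 155 ± 11.9 CPM). Over all genes 4.97% fell and 3.9% rose in BIC against YC, and 8.78% fell and 10.9% rose in pBIC against BIC.

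Relatives of the 10 factors mostly did not pass. Of 15 relatives tested 1 rose in pBIC against YC, Ebf3, and none fell by edgeR, while 1 was lower at an unadjusted p under 0.05, 1 by DESeq2 and 5 by limma-voom. Over all genes 11.8% rose and 10.2% fell by edgeR in this comparison. Spic, an ETS relative known from macrophages, rose in BIC against YC (13.5 ± 4.47 against 2.29 ± 0.591 CPM, edgeR adjusted p = 0.0261) and fell in pBIC against BIC (2.25 ± 1.36 against 13.5 ± 4.47 CPM, edgeR adjusted p = 0.00466). The rise ended without YC 1, YC 2, YC 3, BIC 1 or BIC 3 (edgeR adjusted p up to 0.108). None of the 15 fell in BIC against YC by edgeR, while 1 was lower at an unadjusted p under 0.05, 1 by DESeq2 and 2 by limma-voom.

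Partners and corepressors went both ways. Of 21 tested, 3 rose and 4 fell in pBIC against YC, and 2 rose and 1 fell in BIC against YC. Over all genes 11.8% rose and 10.2% fell in the first comparison, and 3.9% rose and 4.97% fell in the second. Tle4, a Groucho corepressor that PAX5 recruits, fell in pBIC against YC (41.7 ± 13.8 against 101 ± 4.06 CPM, edgeR adjusted p = 0.00442), and its relative Tle3 rose in BIC against YC (519 ± 59.9 against 179 ± 48.1 CPM, edgeR adjusted p = 0.0143; up to 0.0706 without YC 2 or YC 3). Mafk, a small Maf protein that pairs with BACH2, fell in BIC against YC (41.2 ± 13.1 against 155 ± 55.4 CPM, edgeR adjusted p = 0.0245). That call ended without any of the YC and BIC libraries but YC 3 (edgeR adjusted p up to 0.0994).

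Genes that BACH2 represses and plasma cell regulators gave a mixed picture, as did genes repressed by Ikaros or Aiolos. Of 12 genes of the BACH2 and plasma cell list 2 rose and 3 fell in pBIC against YC, where 11.8% of all genes rose and 10.2% fell. Zbtb32, a repressor of the B cell response, rose to 208 ± 121 CPM in pBIC and 311 ± 67.5 CPM in BIC, against 29.2 ± 3.78 CPM in YC (log2 fold change 2.83 ± 0.46 and 3.41 ± 0.50, edgeR adjusted p = 0.00163 and 0.003). Jchain, the joining chain of secreted antibodies, and Sdc1, the plasma cell surface marker CD138, fell in pBIC against YC, with 12.6 ± 25.5 against 625 ± 38.5 CPM and 1.62 ± 0.955 against 12.6 ± 0.239 CPM. The BIC libraries were also below all YC libraries, with 53.2, 5.99 and 8.53 CPM for Jchain and 6.34, 4.3 and 0.837 CPM for Sdc1. Neither passed by edgeR in BIC against YC. Of 8 tested genes of the Ikaros list, 1 rose (Ccnd2) and 2 fell (Ccnd3 and Kit) in pBIC against YC, and 2 rose (Ccnd2 and Spn) and 1 fell (Ccnd3) in BIC against YC. In BIC against YC 3.9% of all genes rose and 4.97% fell. The Spn call ended without each YC library in turn (edgeR adjusted p up to 0.0616). Ccnd2, a G1 cyclin, averaged 189 ± 39.7 CPM in pBIC, 412 ± 61.6 CPM in BIC and 68.8 ± 35.9 CPM in YC.

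The genes most like each factor across the 12 libraries were named by the smallest root mean square difference of centred log2 CPM among 9622 other protein-coding genes whose mean reached 5 CPM. Diaph1 and Myo9b were closest to Spi1 (0.14 each on the log2 scale, beside a median of 0.63 over all candidates). This difference grows with a factor's own spread, so it is not compared between factors. Gimap1 (0.14) and Orai3 (0.21) were closest to Pou2f2, Shld1 (0.19) and Myo1e (0.21) to Spib, and Atf7ip and Tut4 (0.21 each) to Pax5. Sypl (0.24) and Zfp606 (0.28) were closest to Pou2af1, Mthfsl (0.24) and Syvn1 (0.26) to Ikzf3, and Casz1 (0.28) and Stk17b (0.37) to Ebf1. Irf8 was closest to Ccnd3 (0.39) and to Map3k14 (0.41), the gene of the kinase NIK, which stood at 25.8 to 30.8 CPM in pBIC, at 46.4, 44.9 and 50.1 CPM in BIC and at 90.7, 98.0 and 93.9 CPM in YC. Cerk (0.70) and Rhoh (0.75) were closest to Bach2, whose median over all candidates was 2.07.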

How the data were processed

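For each library the authors deposited gene-level read counts, not normalized, which per the file headers came from featureCounts 1.5.0 over exons of GENCODE M13 without paired-end, strand or multi-mapping options. Mates were thus counted separately, and reads over genes on both strands cannot be told apart. STAR, FastQC, edgeR and limma are further tools in the submitters' processing notes, which give no roles or settings, and GRCm38 is the build there. Groups came from the sample titles. The members and gene lists were chosen with earlier results of these data known. Names came from GENCODE M21 and promoters from RefSeq (GRCm38.p6).

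Counts were fitted with edgeR 4.0.16 (R 4.3.3; minimum count 10, TMM, robust quasi-likelihood F test, all 12 libraries, 1 coefficient per group), with the Benjamini-Hochberg adjustment over 17754 genes and a threshold of 0.05, and checked on simulated counts. SE is the absolute log2 fold change over the square root of F. CPM and RPKM use TMM-scaled totals, and ratios add 0.5 counts. Alternatives used limma 3.58.1 and DESeq2 1.42.0. All 10 members were named, up to 4 genes per list by p (up to 2 per direction where both passed), and 2 nearest genes per called member. Cd79a, Blnk, Ciita, Vpreb3, Ebf3's counts, Ighm, Siglech, Tcf4, Pacsin1, Xcr1 and Itgax were added after values were seen. The same holds for Jchain, Sdc1, Prtn3 and S100a8 in BIC and for the full list of 15 fallen factors. Precision is limited by 3 to 6 mice per group.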

Additional observations from a re-analysis of the deposited data

How the results depend on the processing

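Of 597 values of the 10 factors under the alternatives, 535 kept their direction and side of the threshold, 29 lost a call, 23 gained 1 and 10 changed sign. For BIC against YC, 1576 genes passed, against 3032 with DESeq2, 6157 with limma-voom, 236 with the myeloid term, 4602 with only the 2 groups and 563 to 1867 without 1 library; 1 factor passed, against 5 with limma-voom, 0 with the myeloid term, 2 with a replicate block, 6 with only the 2 groups and 0 to 2 without 1 library. For pBIC against YC, 3914 genes passed, against 7295 with limma-voom and 1904 to 4376 without 1 library, and 7 factors, against 2 (without YC 2), 3 (YC 3), 4 (YC 1) and up to 8 (pBIC 6). For pBIC against BIC, 3496 genes passed, against 5371 with limma-voom, 454 with the myeloid term and 1422 to 4134 without 1 library, and 3 factors, against 6, 1 and 3 to 4. The causes were not tested. Signs changed in BIC against YC for Pax5 (0.052) and Ikzf1 (0.241) with the Xist term, Spi1 (0.045), Ikzf1 (0.25) and Prdm1 (-2.37) with the myeloid term, Prdm1 (-0.23) and Trp53 (-0.077) with the replicate block, Trp53 with limma-voom (-0.27), and without 1 library Ikzf1 (-0.238 to 0.007), Prdm1 (-0.02 to 0.996) and Trp53 (-0.311 to 0.376); in pBIC against YC for Spib with the Xist term (0.012); and in pBIC against BIC for Bach2 with limma-voom (-0.27), the myeloid term (-0.46), the replicate block (-0.24) and without 1 library (-0.583, without pBIC 4, to 0.756), and with the myeloid term for Prtn3 (1.23), Prdm1 (1.17) and Ikbkb (-0.034). DESeq2 gave Bach2 no adjusted p. Replicate numbers are shared between groups by name only, and deviations of same-numbered libraries correlated by -0.10 to 0.16 across genes. Libraries pBIC 4 to 6 share their number with no other library, so only pBIC 1 to 3 inform the pBIC level in the fit with the block. The block left 1725, 3144 and 2424 genes called in the 3 comparisons in this order.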

Other observations

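Ebf3, the relative of Ebf1 that passed in pBIC against YC, was uneven. It had 4854 counts in pBIC 3, 4000 in pBIC 6, 1431 in pBIC 1, 977 in pBIC 4, 83 in pBIC 5 and 70 in pBIC 2. In BIC it had 154, 2 and 640 counts, and in YC 0, 8 and 6 counts. Its edgeR adjusted p was 0.0172 in pBIC against YC and up to 0.0731 without each YC library in turn. The libraries with the fewest Ebf3 counts among pBIC, 2 and 5, also had the lowest Pax5 levels, 438 and 344 CPM, while pBIC 3 had much Ebf3 and little Ebf1 (33.9 CPM).

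The pBIC libraries with the lowest Pax5 levels also had the lowest levels of Cd79a, a known target in the B cell receptor complex. Cd79a stood at 381 CPM in pBIC 2 and 161 CPM in pBIC 5, and at 556 to 1180 CPM in the other pBIC libraries. It did not pass the test in pBIC against YC (edgeR adjusted p = 0.169). Other genes switched on by PAX5 or EBF1 went the other way and were highest in these libraries. Blnk stood at 303 CPM in pBIC 2 and 313 CPM in pBIC 5, and at 112 to 231 CPM in the other pBIC libraries. Ciita stood at 270 and 179 CPM, and at 43.6 to 135 CPM in the others. Vpreb3, a further target, stood at 37.9 CPM in pBIC 3 and 64.1 CPM in pBIC 4, and at 1.30 to 7.81 CPM in the other pBIC libraries, beside 38.0, 49.8 and 52.0 CPM in YC.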
